A study of Homo sapiens and Homo sapiens
Mus musculus with 19 samples.

Results

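The genes described here encode the voltage-gated sodium and calcium channels and the potassium channels, with the subunits that assemble with them. All 132 rows of the human count table whose symbol belongs to the KCN, SCN, CACNA1A to CACNA1I, CACNA2D, CACNB or CACNG series were taken, out of 57820 rows in all. Expression was measured by RNA-seq in SK-N-Be2c, an established MYCN-amplified neuroblastoma cell line, either wild-type (Control) or with TWIST1, a basic helix-loop-helix transcription factor, knocked out by CRISPR (sgTWIST1). Both genotypes were profiled as cultured cells, 3 clones each with 1 or 2 library batches per clone, and as orthotopic xenografts, 4 tumors each. The tumors (ortho_1) grew in the left adrenal gland of Swiss nude mice, which keep their own stroma, and were taken at 1000 mm3. The paper reports that sgTWIST1 tumors reached this volume later and that fewer sgTWIST1 grafts formed tumors. Genotype in tumors therefore goes together with time in the mouse, and the part of that time was not tested. The labels call the cell samples clones and the methods call them biological replicates, so whether the spread of 3 is one between clones or between cultures is not known. All 14 samples share this 1 line as their origin, so clones and tumors measure the spread within SK-N-Be2c and not between patients.

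A voltage-gated channel is built around a pore-forming alpha subunit that opens when the membrane depolarizes. Sodium channels carry the rising phase of the action potential, calcium channels couple it to secretion and to calcium-dependent enzymes, and potassium channels end it and set the resting potential. Auxiliary subunits have no pore of their own and change the amount, the gating or the location of the pore. Neuroblastoma arises from sympathoadrenal precursors, and excitability is part of the phenotype of the sympathetic neurons and chromaffin cells that these precursors normally form.

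TWIST1 itself was at 46.9 to 56.4 CPM (gene counts relative to the TMM-scaled total of the library) in Control cells and at 17.4 to 26.1 CPM in sgTWIST1 cells. In tumors it was at 65.1 to 80.6 CPM in Control and at 18.8 to 36.8 CPM in sgTWIST1, so the genotypes did not overlap in either setting, while the edited transcript was still counted. The adrenergic marker HAND2 (99.8 to 479 CPM) was present in every sample, and TH, the rate-limiting enzyme of catecholamine synthesis, was at 0.184 to 2.73 CPM in cells and at 4.49 to 90.2 CPM in tumors. Libraries held 21426499 to 49990985 human counts. Tumors also held murine counts, which were 2.44% to 13.97% of all counts of a library.

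Several tumor libraries stood apart at low levels. The median CPM of the 94 channel genes that were under the level filter described next was 2.41 in Control tumor 2, 1.47 in sgTWIST1 tumor 2 and 1.46 in sgTWIST1 tumor 3, against 0.119 to 0.554 in the other tumors and 0.215 to 0.698 in the cells. Control tumor 2 was the highest Control tumor for 90 of these 94 genes, and 21 of the 94 were at 0 counts in Control tumor 3. Over the 8515 protein-coding genes under the filter the same 3 tumors had the highest medians, with 1.25 CPM in Control tumor 2 and 0.736 and 0.7735 CPM in sgTWIST1 tumors 2 and 3, and the lowest was 0.0478 CPM in Control tumor 3. Control tumor 2 also had the smallest murine share (2.44%). For a channel gene of a few CPM in tumors, the spread within a genotype therefore contains this difference between libraries, and its part in any single result was not tested.

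**Figure D1:**
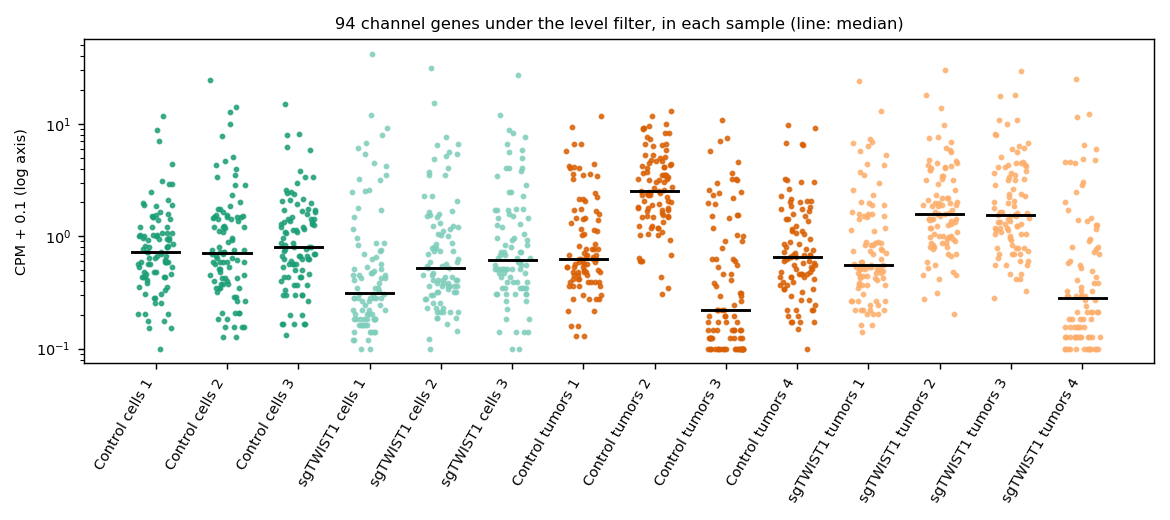
CPM plus 0.1 (log axis) of the 94 channel genes under the level filter in each of the 14 samples, 1 dot per gene, with the median as a line. Control tumor 2 and sgTWIST1 tumors 2 and 3 carry the highest medians, and Control tumor 3 and sgTWIST1 tumor 4 the lowest.

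Of the 132 channel genes, 38 reached a log2 RPKM above 1 in at least 1 library and were tested in the main fit, and 94 did not. In all, 94 genes had a mean of at least 1 CPM in at least 1 of the 4 groups. RPKM divides the level by the exon length of the gene and is used here wherever levels of different genes are set side by side. A gene that passed because it is high in 1 genotype had to differ between genotypes, so the share of the tested genes that changed is given for accounting only.

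On the RPKM scale the highest levels belonged to a few channel genes. In Control cells the highest was KCNJ8, the pore of an ATP-sensitive inward rectifier, at 48.0 ± 6.48 RPKM (SD, n = 3), followed by KCNH2 (hERG, a delayed rectifier that sets the resting potential of neuroblastoma cells) at 31.3 ± 0.920 and CACNG4, a gamma subunit also known as an AMPA receptor regulator, at 29.6 ± 8.21. These last 2 did not differ beyond their spread. CACNA2D1, an alpha2delta subunit that carries calcium channels to the surface, followed at 24.3 ± 2.40 RPKM. In sgTWIST1 cells KCNH2 led at 65.4 ± 5.32 RPKM, and SCN4B, a sodium channel beta subunit, came next at 29.1 ± 5.35. In Control tumors CACNG4 led at 27.9 ± 1.14 RPKM (n = 4) before KCNH2 at 21.7 ± 0.479. In sgTWIST1 tumors the order was KCNH2 at 42.0 ± 4.73, CACNG4 at 26.0 ± 6.53, CACNA2D1 at 20.3 ± 2.48 and KCNG1 at 19.7 ± 5.82, and the last 3 overlapped within their SD. KCNH2 was thus first or second of all 132 genes in every group.

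**Figure D2:**
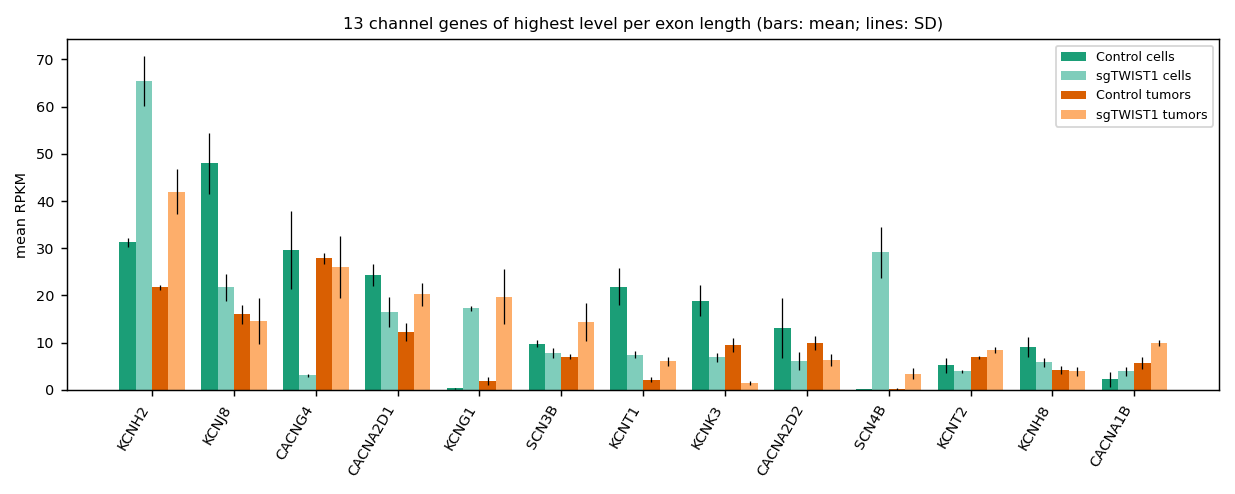
Mean RPKM of the 13 channel genes of highest level, with the SD over 3 clones or 4 tumors as lines. KCNH2 is higher in sgTWIST1 than in Control in both settings, and SCN4B and KCNG1 are near 0 in the Control groups.

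The largest members of most gene families by mean RPKM are given as a map of which channel types these cells transcribe. Among voltage-gated potassium alpha subunits these were KCNA3 (0.181 to 7.40 RPKM over the 4 group means), KCNC4 and KCND1 (means of 0.728 and 0.729 over the 4 groups). The silent subunits, which have no current alone and modify other potassium channel pores, were led by KCNG1, with KCNF1 at 0.745, KCNV2 at 0.547 and KCNS1 at 0.143. The calcium- or sodium-activated families were led by KCNT1 at 9.37, KCNN4 at 1.08 and KCNMA1 at 1.01, while KCNU1 was at 0.0281. KCNK3 (9.19) and KCNJ8 (25.1) led the 2-pore and inward rectifier families. The auxiliary potassium subunits were led by KCNIP4 (2.75), KCNAB1 (2.71), KCNMB4 (0.237) and KCNE4 (0.158). SCN8A was the leading sodium alpha subunit (4.23) and SCN3B the leading beta subunit (9.75), and CACNA1B (5.42), CACNA2D1 (18.3), CACNB3 (2.08) and CACNG4 (21.6) led the calcium channel families. The sensory neuron genes SCN10A and SCN11A were among 38 channel genes whose mean stayed under 1 CPM in every group.

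The first question was which channel genes depend on TWIST1 status in cells and in tumors. Fold changes are given as log2(FC) of Control against sgTWIST1, so a positive value means higher with TWIST1, and DE genes are those with adjusted p below 0.05 whose log2(FC) was 1 or more in either direction (edgeR quasi-likelihood test, Benjamini-Hochberg over all tested genes). In cells 17 channel genes were DE, 9 higher in Control and 8 higher in sgTWIST1. Among all 10888 genes tested in cells 14.5% were DE, 8.14% higher in Control and 6.36% higher in sgTWIST1. In tumors 17 channel genes were DE, 7 higher in Control and 10 higher in sgTWIST1, where 14.3% of 10889 genes were DE, 6.74% and 7.59% by direction. The median log2(FC) of the 38 was 0.32 in cells and -0.20 in tumors, beside -0.0113 and -0.0038 over all genes. Cell and tumor samples are different libraries, and 10 genes were DE in both, 5 higher in Control, 4 higher in sgTWIST1 and 1 in opposite directions. Another 7 were DE in cells alone, 7 in tumors alone and 14 in neither. The matching shares over all tested genes are not given here, so these shared counts are for accounting only. The CPM of the 2 genotypes did not overlap for 24 of the 38 in cells and for 24 in tumors, beside 53.4% and 44.1% of all genes. In bulk RNA, fewer cells that express a gene and less RNA per cell cannot be told apart. A fit with the lower filter of edgeR's filterByExpr tested 115 channel genes in cells, of which 19 were higher in Control and 18 in sgTWIST1, beside 8.76% and 6.65% of all 15454 genes. In tumors it tested 122, of which 11 were higher in Control and 15 in sgTWIST1, beside 6.14% and 5.59% of 15951 genes. Values from that fit are named as such.

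**Figure D3:**
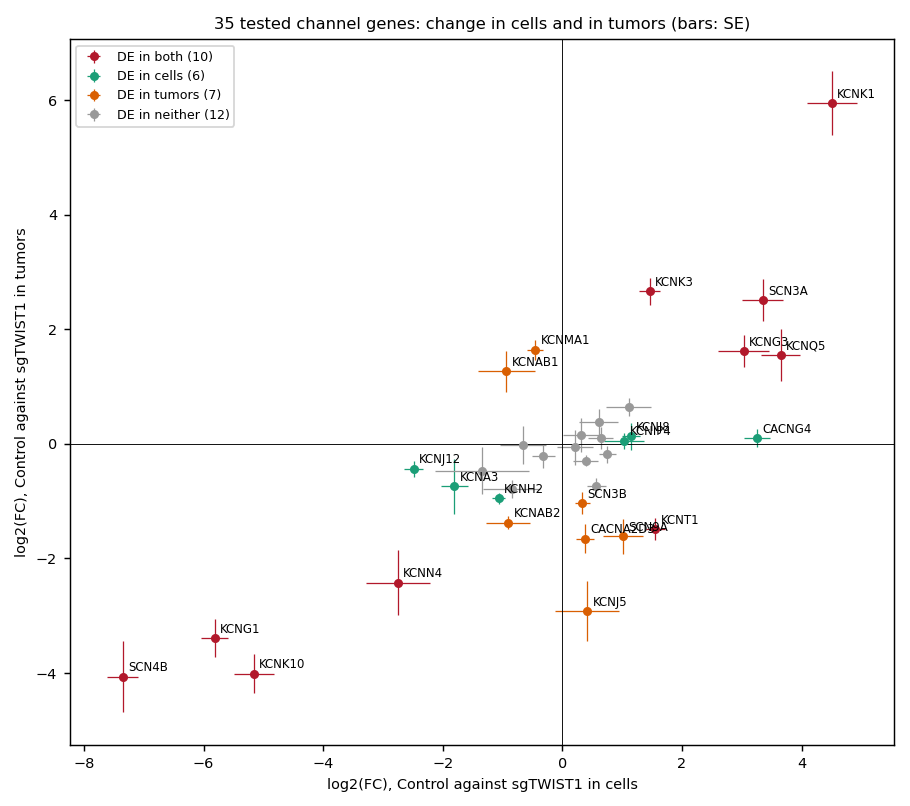
log2(FC) of Control against sgTWIST1 in cells (horizontal) and tumors (vertical) for 35 of the 38 tested channel genes, with SE bars and DE genes named. KCNK1 lies at the upper right, SCN4B, KCNG1 and KCNK10 at the lower left, and KCNT1 at lower right with opposite signs.

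The 2-pore potassium channels, which stay open at rest and set the resting potential, differed in opposite directions within the family. KCNK1 (TWIK-1, chr1:233749852-233808260 in GRCh37) was at 6.63, 3.95 and 3.76 CPM in the Control clones and at 0.184, 0.176 and 0.289 CPM in the sgTWIST1 clones. In tumors it was at 15.5, 13.0, 22.8 and 21.8 CPM in Control and at 0.204, 0.350, 0.728 and 0.0281 CPM in sgTWIST1. Nearly all of its transcript was thus found in Control samples, by a mean of 22.1-fold in cells and 55.8-fold in tumors, and it had the largest positive log2(FC) of the tested channel genes in both settings (4.50 ± 0.42 (SE), adjusted p = 0.000323 in cells, and 5.95 ± 0.55, adjusted p = 2.66e-05 in tumors). KCNK3 (TASK-1, an acid-sensitive channel) was more abundant, at 139, 114 and 98.0 CPM in Control clones and 38.1, 49.5 and 40.2 CPM in sgTWIST1 clones. Its tumor values were 48.9, 53.4, 70.0 and 62.9 CPM in Control and 5.10, 9.95, 10.3 and 12.0 CPM in sgTWIST1, with log2(FC) of 1.46 ± 0.17 in cells and 2.66 ± 0.24 in tumors (adjusted p = 0.000905 and 1.85e-05). KCNK10 (TREK-2, opened by stretch and lipids) had the reverse pattern, at 0.488, 0.245 and 0.465 CPM in Control clones and 16.7, 15.1 and 11.2 CPM in sgTWIST1 clones. Its tumor values were 0.869, 2.08, 0.741 and 0.843 CPM in Control and 17.5, 20.5, 19.6 and 13.3 CPM in sgTWIST1, and the groups did not overlap (log2(FC) -5.16 ± 0.34 and -4.01 ± 0.34, adjusted p = 6.82e-05 and 1.09e-05). The other 12 genes of the family were under the filter. In the filterByExpr fit KCNK12, a close relative of KCNK13 with little current of its own, was higher in sgTWIST1 in both settings (log2(FC) -1.59 and -1.08, adjusted p = 0.00595 and 0.00178), at 1.66 to 2.80 CPM against 5.11 to 8.71 CPM in cells and 4.44 to 9.03 CPM against 11.4 to 17.4 CPM in tumors. KCNK7 was higher in Control clones in the same fit (2.22, adjusted p = 0.0221).

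The silent subunits KCNG1 and KCNG3 also moved apart. KCNG1 (Kv6.1, chr20:49620193-49639644 in GRCh37) was at 1.13, 1.80 and 2.09 CPM in Control clones and at 96.8, 91.7 and 92.5 CPM in sgTWIST1 clones. In tumors it was at 8.71, 17.5, 6.09 and 8.93 CPM in Control and at 92.9, 151, 77.9 and 105 CPM in sgTWIST1. The sgTWIST1 mean was 55.9-fold higher than that of Control in cells and 10.4-fold higher in tumors (log2(FC) -5.82 ± 0.23 and -3.39 ± 0.34, adjusted p = 1.02e-05 and 4.39e-05). KCNG3 (Kv6.3) was at 3.76 to 5.10 CPM in Control clones and 0.287 to 0.825 CPM in sgTWIST1 clones, and at 10.5 to 12.1 CPM in Control tumors and 2.55 to 6.24 CPM in sgTWIST1 tumors, with no overlap (log2(FC) 3.03 ± 0.42 and 1.62 ± 0.28, adjusted p = 0.00181 and 0.000938). The silent subunit KCNV2, under the main filter, was at 1.95 to 4.00 CPM in Control tumors and 0.429 to 1.05 CPM in sgTWIST1 tumors (filterByExpr log2(FC) 1.93, adjusted p = 0.0157).

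Among sodium channels the largest difference of all was in SCN4B (chr11:118004092-118023603 in GRCh37), the beta4 subunit that gives resurgent current. It was at 1.18, 0.763 and 1.06 CPM in Control clones and at 130, 188 and 175 CPM in sgTWIST1 clones, 164-fold higher on average. In the xenografts it was at 1.10, 2.87, 0.167 and 0.819 CPM in Control and at 28.2, 18.1, 13.2 and 18.9 CPM in sgTWIST1, 15.8-fold higher (log2(FC) -7.36 ± 0.26 and -4.06 ± 0.63, adjusted p = 7.93e-06 and 0.000615). Murine Scn4b had 140 counts beside 148 human ones in Control tumors, and 31 beside 2858 in sgTWIST1 tumors. Its part in the tumor values was not tested. SCN3A (Nav1.3, the embryonic neuronal sodium channel) went the other way from SCN4B, at 36.5, 38.6 and 35.9 CPM in Control clones and 4.38, 1.83 and 4.79 CPM in sgTWIST1 clones. It kept this difference in tumors, at 23.8 to 33.0 CPM in Control and 2.74 to 9.60 CPM in sgTWIST1 (log2(FC) 3.35 ± 0.34 and 2.51 ± 0.37, adjusted p = 0.000545 and 0.000406). SCN3A lies in a cluster of sodium channel genes on chromosome 2 (chr2:165944036-166060560 in GRCh37), and its neighbors SCN2A and SCN1A, under the main filter, were also higher in Control in the filterByExpr fit (15.4% of all genes DE in cells and 11.7% in tumors). SCN2A was at 11.7, 24.2 and 14.96 CPM in Control clones and 3.11, 1.96 and 3.34 CPM in sgTWIST1 clones, and at 6.48 to 8.24 CPM against 0.225 to 1.91 CPM in tumors (log2(FC) 2.53 and 2.92, adjusted p = 0.000837 and 0.00112). SCN1A was at 2.36 to 3.29 CPM against 0.143 to 0.682 CPM in cells and at 5.62 to 6.54 CPM against 0.204 to 0.956 CPM in tumors (log2(FC) 2.59 and 3.61, adjusted p = 0.0068 and 0.000171). SCN9A (Nav1.7, the channel of sympathetic and pain neurons), in the same cluster at chr2:167051695-167232511, was at 23.1 to 40.6 CPM against 9.57 to 21.9 CPM in cells without a call (log2(FC) 1.01 ± 0.34, adjusted p = 0.0515). It was DE there with DESeq2 (1.02, adjusted p = 0.0105), with all 4 groups in 1 edgeR fit (1.01, adjusted p = 0.041) and without Control clone 2 (1.23, adjusted p = 0.0111). With the filterByExpr filter it was not DE in cells (0.93, adjusted p = 0.0733). In tumors it was instead higher in sgTWIST1, at 17.3, 19.6, 13.0 and 11.3 CPM in Control and 77.5, 32.9, 44.4 and 31.0 CPM in sgTWIST1 (log2(FC) -1.61 ± 0.31, adjusted p = 0.00186).

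The sodium channel genes SCN3B, SCN8A and SCN4A differed less. SCN3B (beta3) was at 93.6 to 106 CPM in Control clones and 66.6 to 84.8 CPM in sgTWIST1 clones. In tumors it was at 63.2 to 76.7 CPM in Control and 123, 180, 176 and 97.4 CPM in sgTWIST1, with a log2(FC) of -1.03 ± 0.19 (adjusted p = 0.00133) that fell to -0.63 when Control tumor 2 and sgTWIST1 tumors 2 and 3 were left out. Leaving out Control tumor 4, sgTWIST1 tumor 2 or sgTWIST1 tumor 3 alone also brought it under the fold limit (-0.98, -0.90 and -0.92). Of the 20 tested genes nearest to SCN3B, 8 were DE in cells and 8 in tumors, with medians of -0.34 and -0.26. SCN8A (Nav1.6) had the highest level of the alpha subunits and was DE in neither comparison (log2(FC) 0.75 ± 0.15 and -0.18 ± 0.15). Low-level SCN4A was higher in Control clones in the filterByExpr fit (log2(FC) 1.66) and not DE in tumors.

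The calcium- and sodium-activated potassium channels take up signals from inside the cell. KCNT1 (Slack, sodium-activated) was at 298, 410 and 314 CPM in Control clones and 102, 124 and 121 CPM in sgTWIST1 clones. In tumors the order was turned, with 36.1, 42.3, 33.7 and 22.3 CPM in Control and 96.5, 114, 77.1 and 87.7 CPM in sgTWIST1. Its log2(FC) was 1.55 ± 0.16 in cells and -1.48 ± 0.19 in tumors (adjusted p = 0.000482 and 0.000167). In the main fit KCNT1 was the only one of the 38 that was DE in both settings with opposite signs. The 20 tested genes nearest to KCNT1, on 9q34, had median log2(FC) of 0.38 in cells and 0.57 in tumors. KCNN4 (KCa3.1, the intermediate-conductance calcium-activated channel) was low and higher in sgTWIST1 in both settings, at 0.565 to 1.80 CPM against 4.67 to 9.24 CPM in cells and 0.215 to 2.21 CPM against 4.12 to 5.92 CPM in tumors (log2(FC) -2.76 ± 0.54 and -2.42 ± 0.57, adjusted p = 0.00749 and 0.0053). Murine Kcnn4 made up 23.4% of the human and murine counts of the gene in tumors, and reads that match both species were kept in the human counts. By genotype there were 106 murine and 114 human counts in Control tumors and 129 and 655 in sgTWIST1 tumors. The part of murine reads in the KCNN4 difference was not tested. KCNMA1 (BK, the large-conductance channel) was at 21.6, 21.7 and 26.9 CPM against 30.9, 33.8 and 31.6 CPM in cells. In xenografts it was higher in Control, at 73.6, 80.2, 81.1 and 81.1 CPM against 16.5, 31.8, 25.0 and 28.1 CPM (log2(FC) 1.64 ± 0.17, adjusted p = 4.37e-05). Its beta subunits KCNMB4 and KCNMB3, under the main filter, were higher in Control clones in the filterByExpr fit (2.08 and 1.15, adjusted p = 0.0134 and 0.0306), and 47.6% of the KCNMB3 exons overlap another gene. KCNT2 and KCNN3 were DE in neither comparison.

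The KCNQ channels carry the M-current, which damps repetitive firing. KCNQ5 was at 22.9, 20.8 and 21.6 CPM in Control clones and 2.13, 2.09 and 0.867 CPM in sgTWIST1 clones. It was at 52.1, 40.0, 42.9 and 50.9 CPM in Control tumors and 5.59, 8.55, 32.8 and 16.9 CPM in sgTWIST1 tumors, the highest of these in sgTWIST1 tumor 3. It was DE in both (log2(FC) 3.65 ± 0.33 and 1.56 ± 0.46, adjusted p = 0.000293 and 0.019), and in tumors not without sgTWIST1 tumor 2 (1.35, adjusted p = 0.0567). KCNQ3, under the main filter, was DE in neither comparison of the filterByExpr fit (log2(FC) 0.50 and 0.58, adjusted p = 0.383 and 0.832).

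The ether-a-go-go family was led by KCNH2. It was at 218, 232 and 226 CPM in Control clones and 515, 452 and 446 CPM in sgTWIST1 clones, and at 159, 155, 159 and 152 CPM in Control tumors and 305, 279, 277 and 350 CPM in sgTWIST1 tumors. The genotypes did not overlap in either setting, and sgTWIST1 was 2.09-fold higher in cells and 1.93-fold higher in tumors. The fold limit alone separated the call in cells (log2(FC) -1.06 ± 0.11, adjusted p = 0.000535) from tumors (-0.95 ± 0.10, adjusted p = 4.22e-05), and the difference between them was 0.11 ± 0.14. Without sgTWIST1 clone 1 the value in cells was -0.99. KCNH5 and KCNH1, under the main filter, changed in cells in opposite directions in the filterByExpr fit. KCNH5 was at 6.96, 12.6 and 7.84 CPM in Control clones and 0.0614, 0.2201 and 0.495 CPM in sgTWIST1 clones (log2(FC) 5.23, adjusted p = 0.000394), and at 0.347 to 1.91 CPM in all 8 tumors. KCNH1 was at 0.164 to 0.591 CPM against 6.49 to 9.03 CPM in cells (log2(FC) -4.13, adjusted p = 0.000372), and 46.8% of its exons overlap another annotated gene. KCNH4, KCNH6 and KCNH8 were not DE.

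Among the voltage-gated potassium alpha subunits, KCNA3 (Kv1.3) was at 18.5, 28.4 and 17.5 CPM in Control clones and 89.8, 75.8 and 59.4 CPM in sgTWIST1 clones (log2(FC) -1.81 ± 0.23, adjusted p = 0.00134). In tumors it fell to 0.747 to 3.58 CPM in Control and 1.74 to 3.49 CPM in sgTWIST1, and the genotypes overlapped (log2(FC) -0.74 ± 0.48, adjusted p = 0.23). Without Control tumor 2 KCNA3 was DE and higher in sgTWIST1 tumors (-1.27, adjusted p = 0.0316). This was the only 1 of 8 fits leaving out 1 tumor in which it was DE. KCNA2 (Kv1.2), under the main filter, was at 0.191 to 0.498 CPM in Control clones and at 11.8, 15.2 and 8.13 CPM in sgTWIST1 clones (filterByExpr log2(FC) -5.22, adjusted p = 5.91e-05). In tumors, however, it was at 0.0239 to 2.33 CPM in Control and 0.281 to 2.78 CPM in sgTWIST1. Murine Kcna2 was 40.7% of the joint counts there, with 26 murine and 94 human counts in Control and 138 and 145 in sgTWIST1. Its part in the tumor values was not tested. KCNC4 and KCND3, which carry fast A-type current, were higher in sgTWIST1 in both settings in the filterByExpr fit. KCNC4 was at 4.32 to 7.63 CPM against 27.3 to 41.5 CPM in cells and at 6.93 to 12.9 CPM against 24.1 to 30.2 CPM in tumors (log2(FC) -2.55 and -1.48, adjusted p = 0.000231 and 6.3e-05). KCND3 was at 1.36 to 2.46 CPM against 6.38 to 11.9 CPM in cells and at 0.932 to 6.49 CPM against 7.29 to 18.1 CPM in tumors (log2(FC) -2.28 and -2.14, adjusted p = 0.00179 and 0.00734). KCND1 was higher in sgTWIST1 tumors in the same fit (log2(FC) -1.29). The auxiliary subunits KCNAB1 and KCNAB2, which bind KCNA pores, split in tumors. KCNAB1 was at 23.3 to 31.5 CPM in Control tumors and 6.70, 9.36, 22.2 and 7.02 CPM in sgTWIST1 tumors (log2(FC) 1.27 ± 0.36, adjusted p = 0.0159). KCNAB2 was at 10.4 to 10.7 CPM in Control tumors and 24.4 to 29.8 CPM in sgTWIST1 tumors (log2(FC) -1.38 ± 0.11, adjusted p = 8.06e-06). Murine Kcnab2 was 10.3% of the joint counts. In cells KCNAB2 was not DE (-0.91, adjusted p = 0.097), but was with the block (-1.01, adjusted p = 0.0217). KCNIP4, which modifies KCND channels, was at 9.15, 23.0 and 15.8 CPM against 7.21, 9.55 and 6.56 CPM in cells. Its call there (log2(FC) 1.03 ± 0.34, adjusted p = 0.0493) was lost with the block (0.96), without Control clone 2 (0.69), Control clone 3 (1.03) or any of the sgTWIST1 clones 1 to 3 (0.98, 1.22 and 0.94), and 46.3% of its exons overlap another gene.

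Inward rectifiers hold the membrane near the potassium equilibrium. KCNJ5 (Kir3.4, a G protein-gated subunit) was at 0.328 to 1.16 CPM in all clones. Its tumor level was 0.926, 5.49, 1.82 and 1.28 CPM in Control and 12.7, 18.997, 24.1 and 14.5 CPM in sgTWIST1 (log2(FC) -2.92 ± 0.52, adjusted p = 0.00139). Murine Kcnj5 was 1.23% of the joint counts there. The adrenal cortex markers in the murine counts summed to 5.19 to 20.6 CPM in Control tumors and 6.04 to 1268 CPM in sgTWIST1 tumors, and their part in the KCNJ5 difference was not tested. KCNJ12 (Kir2.2) was at 6.55 to 8.97 CPM in Control clones and 39.7 to 43.0 CPM in sgTWIST1 clones (log2(FC) -2.49 ± 0.15, adjusted p = 5.75e-05), and its tumor groups, at 21.1 to 26.7 and 24.7 to 34.7 CPM, overlapped. This gene has near-identical copies, so its counts are uncertain. KCNJ8 was at 135, 124 and 103 CPM in Control clones and 53.0, 62.5 and 48.3 CPM in sgTWIST1 clones (log2(FC) 1.14 ± 0.15, adjusted p = 0.00143), and overlapped in tumors. The 20 tested genes nearest to KCNJ8 had a median log2(FC) of 0.82 in cells and 0.72 in tumors, with 8 and 6 of them DE, and murine Kcnj8, a pericyte gene, was 14.99% of the joint counts in tumors. KCNJ14, under the main filter, was higher in sgTWIST1 in both (filterByExpr log2(FC) -1.12 and -1.46), KCNJ2 (Kir2.1) was higher in sgTWIST1 clones (-1.27, adjusted p = 0.0355), and KCNJ6 was DE in neither.

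Calcium channels combine an alpha1 pore with auxiliary subunits. Of the tested genes 2 encode pores and 6 auxiliary subunits, and CACNG4 in cells and CACNA2D3 in tumors were the DE ones. CACNG4 was at 96.4, 139 and 83.0 CPM in Control clones and 10.0, 12.2 and 10.9 CPM in sgTWIST1 clones (log2(FC) 3.26 ± 0.22, adjusted p = 8.1e-05). Among tumors it was at 93.7 to 102 CPM in Control and 70.7 to 118 CPM in sgTWIST1, and the groups overlapped (log2(FC) 0.10 ± 0.16, adjusted p = 0.64). CACNA2D3 was at 3.35 to 6.57 CPM in Control tumors and 12.3 to 23.1 CPM in sgTWIST1 tumors (log2(FC) -1.65 ± 0.26, adjusted p = 0.000526). CACNA2D1 did not overlap between genotypes in either setting and was under the fold limit in both, with 209, 212 and 248 CPM against 185, 137 and 131 CPM in cells (log2(FC) 0.56 ± 0.16) and 94.8 to 136 CPM against 164 to 210 CPM in tumors (-0.73 ± 0.13). CACNA2D2 was at 59.2, 133 and 63.9 CPM against 25.0, 47.1 and 46.4 CPM in cells, where its log2(FC) of 1.10 ± 0.37 missed the threshold (adjusted p = 0.0544) and passed it with the block (1.07, adjusted p = 0.0141). The N-type pore CACNA1B was at 9.69, 39.2 and 16.5 CPM in Control clones and 34.1, 49.97 and 33.1 CPM in sgTWIST1 clones, and the T-type pore CACNA1H at 2.65, 27.2 and 4.69 CPM and 21.1, 34.6 and 31.2 CPM. Neither was DE (log2(FC) -0.85 ± 0.47 and -1.34 ± 0.78, adjusted p = 0.2 and 0.22), and for both Control clone 2 lay within the range of the knockout. Both were DE with the block (-1.05 and -1.9999, adjusted p = 0.0351 and 0.0411) and without Control clone 2 (-1.57 and -2.98). The L-type pore CACNA1C and the T-type pore CACNA1G, under the main filter, were higher in Control clones in the filterByExpr fit (log2(FC) 1.73 and 2.16), and CACNA1C also in tumors (2.02, adjusted p = 0.0374). Murine Cacna1c made up 52.99% of the joint counts in tumors, with 376 murine and 558 human counts in Control and 404 and 134 in sgTWIST1, and its part in that difference was not tested. In the filterByExpr fit CACNA1F, of the retina, was also higher in Control clones (2.27) at up to 1.12 CPM. By the same fit CACNG2 (stargazin) was higher in sgTWIST1 clones (-3.34, adjusted p = 0.000397), at 3.39 to 4.14 CPM against 0.273 to 0.565 CPM. CACNA1A, the P/Q-type pore, was DE in neither.

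**Figure D4:**
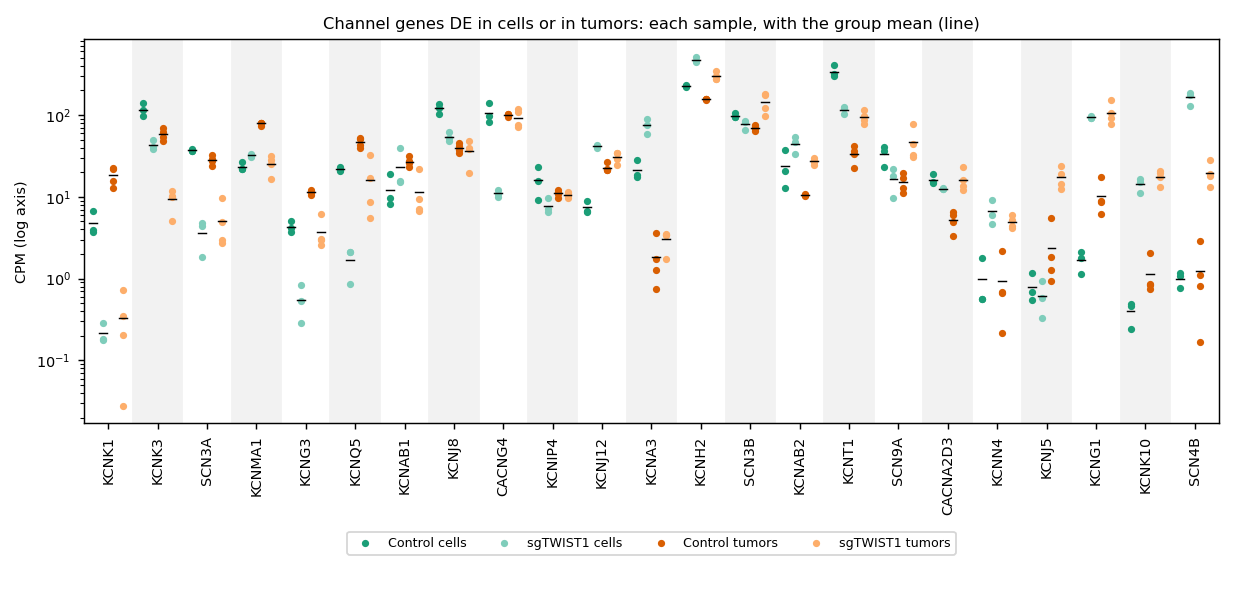
CPM (log axis) of each sample for 23 of the 24 channel genes DE in cells or in tumors, with the group mean as a line, ordered from the highest to the lowest log2(FC) in tumors. KCNK1 at the left is near 0 in sgTWIST1, and KCNG1, KCNK10 and SCN4B at the right are near 0 in Control cells.

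The promoter windows of DE genes are shown because TWIST1 binds E-boxes, whose letters are CANNTG on either strand. In RefSeq windows of the 250 bases before the transcription start (GRCh38.p14), 61.8% of all 35116 windows and 58.9% of the 146 windows of 94 channel genes held at least 1 match. Of the genes DE in both settings, 4 with higher Control levels had a window (KCNG3, KCNK1, KCNK3 and KCNQ5), and 1 of these 4 windows held a match. Among genes higher in sgTWIST1, 3 had 4 windows (KCNK10, KCNN4 and SCN4B), of which 3 held one. The 5 windows that follow are given 5′ to 3′ on the strand of the gene, for the 2-pore genes that moved apart and for SCN4B and KCNN4, with each CANNTG match in capitals. KCNK10 has a second window without a match.
KCNK1, chr1:233613856-233614105, + strand: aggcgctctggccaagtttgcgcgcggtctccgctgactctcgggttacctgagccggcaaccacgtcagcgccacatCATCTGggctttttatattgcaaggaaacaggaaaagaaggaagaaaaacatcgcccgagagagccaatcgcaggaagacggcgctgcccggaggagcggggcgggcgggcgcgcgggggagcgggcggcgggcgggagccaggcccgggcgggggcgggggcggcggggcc
KCNK3, chr2:26692472-26692721, + strand: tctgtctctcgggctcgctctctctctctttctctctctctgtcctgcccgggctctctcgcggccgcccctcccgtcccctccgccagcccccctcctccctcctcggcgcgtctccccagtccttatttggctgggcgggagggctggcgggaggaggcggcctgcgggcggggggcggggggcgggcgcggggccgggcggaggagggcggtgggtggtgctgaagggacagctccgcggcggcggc
SCN4B, chr11:118145434-118145683, - strand: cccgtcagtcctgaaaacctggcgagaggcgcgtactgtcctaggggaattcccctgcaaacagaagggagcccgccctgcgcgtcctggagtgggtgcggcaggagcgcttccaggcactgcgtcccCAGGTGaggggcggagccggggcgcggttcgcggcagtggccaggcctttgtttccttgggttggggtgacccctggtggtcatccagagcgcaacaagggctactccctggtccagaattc
KCNN4, chr19:43780974-43781223, - strand: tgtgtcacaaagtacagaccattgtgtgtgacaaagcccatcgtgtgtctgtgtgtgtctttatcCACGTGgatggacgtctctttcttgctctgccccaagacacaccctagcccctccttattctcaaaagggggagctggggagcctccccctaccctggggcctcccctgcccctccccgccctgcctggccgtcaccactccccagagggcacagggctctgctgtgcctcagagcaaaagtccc
KCNK10, chr14:88270912-88271161, - strand: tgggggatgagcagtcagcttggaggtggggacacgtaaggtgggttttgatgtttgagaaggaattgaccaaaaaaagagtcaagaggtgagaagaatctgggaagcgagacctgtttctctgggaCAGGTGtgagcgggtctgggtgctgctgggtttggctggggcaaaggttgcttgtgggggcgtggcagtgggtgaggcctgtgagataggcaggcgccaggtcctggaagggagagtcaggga
KCNK1 held CATCTG, SCN4B and this window of KCNK10 held CAGGTG, KCNN4 held CACGTG, and KCNK3 held none. The CG dinucleotide occurred 30 times in the KCNK1 window and 27 times in that of KCNK3, against 17 in SCN4B and 5 each in KCNN4 and KCNK10. A match of these letters describes the sequence and does not show binding.

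The second question was whether the effect of the knockout differed between cells and tumors. The difference of the 2 log2(FC) values (tumors minus cells, tested over all 4 groups) was DE for 16 of the 38 channel genes, 8 in each direction, beside 7.81% of all genes (2.82% positive and 4.99% negative). The difference was most negative for KCNJ5 (-3.33 ± 0.81, adjusted p = 0.0157), CACNG4 (-3.16 ± 0.28, adjusted p = 1.21e-05) and KCNT1 (-3.04 ± 0.28, adjusted p = 1.45e-05), and it was positive for SCN4B (3.24 ± 0.72, adjusted p = 0.00997) and KCNG1 (2.43 ± 0.45, adjusted p = 0.00336) among others. For KCNMA1 (2.10 ± 0.24, adjusted p = 9.89e-05) and SCN9A (-2.62 ± 0.49, adjusted p = 0.00346) it goes with the sample values given above. KCNK3 differed more between genotypes in tumors than in cells (1.20 ± 0.33, adjusted p = 0.0269), and for KCNK1 and KCNK10 the difference did not pass (1.43 and 1.16, adjusted p = 0.258 and 0.138). Several calls lay close to the threshold. The KCNQ5 call (-2.08, adjusted p = 0.0497) was lost in 12 of 14 fits that left out 1 library, all but those without sgTWIST1 tumors 1 or 2. In these 12 the difference was -2.26 to -1.82, except for -1.46 without sgTWIST1 tumor 3, and the adjusted p was 0.0534 to 0.111. It was also lost with the block (-1.85). The KCNAB1 call (2.19, adjusted p = 0.0353) was lost in 9 of the 14, those without Control clones 1 or 3, sgTWIST1 clone 3, Control tumors 1, 3 or 4, or sgTWIST1 tumors 1, 2 or 4, at 1.58 to 2.21 (adjusted p = 0.0541 to 0.109). The KCNK3 call was lost without Control clone 3, sgTWIST1 clone 2, Control tumors 3 or 4 or sgTWIST1 tumor 1 (0.99 to 1.17). The calls of KCNK3 and SCN3B were lost when Control tumor 2 and sgTWIST1 tumors 2 and 3 were left out (1.39 and -0.96). The KCNJ5 call was lost without sgTWIST1 clone 1 (-3.00, adjusted p = 0.0507).

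Tumors were also compared with cells of the same genotype, with positive log2(FC) for higher in tumors. Cells and tumors also differed in the RNA input and the sequencing lanes, and these cannot be told apart from growth in the adrenal gland. The labels name a separate extraction kit for tumors and the published methods name 1 kit for both. These comparisons use the same samples as the interaction. In Control, 18 channel genes were DE, 10 higher and 8 lower in tumors, beside 11.8% of all genes (5.82% and 5.96%). In sgTWIST1 there were 15, of which 10 were higher and 5 lower, beside 12.5% of all genes (7.87% and 4.67%). KCNA3 fell in both genotypes (log2(FC) -3.61 ± 0.40 and -4.64 ± 0.40, adjusted p = 1.98e-05 and 2.63e-06). KCNT1 fell by 3.34 on the log2 scale in Control tumors (adjusted p = 1.84e-07), with -0.30 ± 0.19 in sgTWIST1 (adjusted p = 0.218). CACNG4 had a log2(FC) of -0.09 ± 0.19 in Control (adjusted p = 0.742) and rose in sgTWIST1 (3.07 ± 0.22, adjusted p = 5.62e-07). KCNJ13, an inward rectifier of epithelia, rose in both genotypes (1.56 ± 0.32 and 1.72 ± 0.33), and so did KCNG3 (1.39 and 2.81) and CACNA1B (1.37 and 1.32). Of the KCNJ13 exons 29.7% overlap other genes, and the part of this overlap in its rise was not tested. The CACNA1B call in sgTWIST1 was lost when Control tumor 2 and sgTWIST1 tumors 2 and 3 were left out (1.24, adjusted p = 0.0657). SCN4B fell by 3.06 on the log2 scale in sgTWIST1 tumors (adjusted p = 0.000113) while its Control level was near 1 CPM in both settings. KCNQ5 rose in sgTWIST1 (3.17 ± 0.51, adjusted p = 0.000323), as did KCNJ5 (4.88 ± 0.64, adjusted p = 6.5e-05). The rise of KCNJ5 in Control (1.55, adjusted p = 0.0463) was lost without Control tumor 2 (0.76), any 1 of the Control clones 1 to 3 (1.45 to 1.91) or Control tumor 3 (1.63).

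**Figure D5:**
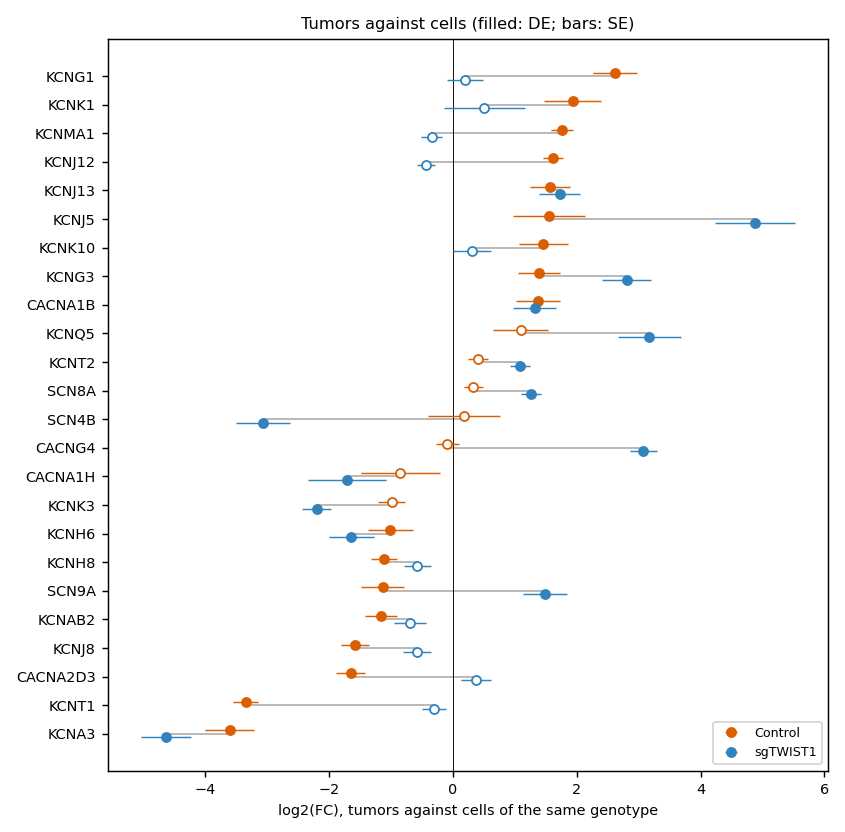
log2(FC) of tumors against cells of the same genotype, with SE bars, for channel genes DE in Control or sgTWIST1 (filled points are DE). KCNA3 is low in tumors of both genotypes, KCNT1 falls in Control and CACNG4 rises in sgTWIST1.

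Genes that work with these channels were taken from a list of 53 scaffold, pacemaker, pump and regulator genes, of which 52 were in the table and 31 were tested. In cells 11 were DE, 7 higher in Control and 4 higher in sgTWIST1, and in tumors 7 were DE, 2 and 5 by direction, beside 14.5% and 14.3% of all genes tested. HCN2, a pacemaker channel, was at a mean of 18.8 CPM in Control clones and 5.75 CPM in sgTWIST1 clones, and at 6.07 and 2.44 CPM in tumors (log2(FC) 1.70 and 1.33, adjusted p = 0.00323 and 0.0142). CNTNAP2, which clusters KCNA channels in axons, was at 5.62 and 138 CPM in cells and 49.6 and 291 CPM in tumors (-4.62 and -2.56, adjusted p = 1.78e-05 and 0.000286). DPP6, a partner of KCND channels, was at 43.3 and 5.79 CPM in cells (2.88, adjusted p = 0.00145) and at 37.5 and 62.2 CPM in tumors (-0.73). HVCN1, a proton channel, was at 5.18 and 0.263 CPM in cells (4.48, adjusted p = 0.00388), and the calcium pump gene ATP2B4 was higher in sgTWIST1 in both settings (-1.70 and -1.57, adjusted p = 0.0069 and 2.5e-05). The ankyrin ANK3 and neurofascin NFASC, which anchor sodium channels, were higher in Control clones (1.29 and 1.53) and not DE in tumors.

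The genes whose level followed 6 channel genes most closely over the 14 samples are given as a description, since the samples fall into 4 groups and few levels set such a correlation. For KCNK1 these were CD200, ARHGAP36 and SLC16A9 (Pearson r = 0.984, 0.984 and 0.982). For KCNK3 they were NCS1, PRRT4 and PVRL2 (0.981, 0.970 and 0.963), and for SCN3A TRPM6, LOXL3 and TRIM28 (0.978, 0.974 and 0.970). KCNK10 was closest to PCDHGA1, ZNF732 and TIGD7 (0.994, 0.987 and 0.985). KCNG1 was closest to B3GAT1, PCDHB15 and FGF1 (0.987, 0.984 and 0.984), and SCN4B to PRKAA1, SLC1A3 and FAM212B (0.975, 0.971 and 0.970).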

How the data were processed

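The authors aligned single-end 100 base RNA-seq reads of ribosomal RNA-depleted libraries with STAR 2.5.2b and estimated gene counts with RSEM 1.3.0 after mapping all samples to hg19 and mm10 together (per the labels and methods); both tables hold the deposited, RSEM expected counts, human in 19 columns and murine in 8. Reads matching both genomes were kept in the human counts. Here counts were rounded and the batches of a clone summed. The 57820 human rows were matched by Ensembl gene identifier to GENCODE 44 on GRCh37 (55538 matched). The 10889 protein-coding genes with log2 RPKM above 1 in at least 1 library were tested with edgeR 4.0.16 (quasi-likelihood, TMM, R 4.3.3), adjusting p over all tested genes. RPKM used the joint exon length of each gene. A step on simulated data was passed before the fits. DESeq2 1.42.0, other filters, the replicate block and omitted libraries were alternatives. Figures were drawn with matplotlib 3.10.9. Whether counting used strand is not given in the sources used here. P-values measure the spread between these samples. The members, lists and named genes (every gene DE in a genotype comparison, the highest of each family, and a short list) were chosen with earlier results of these data known. Some genes are not reported here and are left out of the figures that name genes. Same-numbered clones deviated together for clones 1 and 2 (r = 0.316 and 0.283) and little for clone 3 (0.100), beside -0.272 to 0.0648 for clones of unlike number. The main fit does not use this pairing. The block is taken as pairing in cells, and its value is given where it changes a call. Libraries totalled 21426499 to 49990985 human counts, and 3 counts are 0.0600 to 0.140 CPM; such limits cover counting error only.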

Additional observations from a re-analysis of the deposited data

Results flagged for a closer look

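The effect of the knockout differed between tumors and cells for 16 channel genes by the interaction test of edgeR, given here as log2(FC) in tumors minus log2(FC) in cells. Among these, the differences were -3.33 for KCNJ5, -3.16 for CACNG4, -3.04 for KCNT1, -2.62 for SCN9A, -2.08 for KCNQ5, -2.03 for CACNA2D3, -1.36 for SCN3B and -1.29 for CACNA2D1. They were 1.20 for KCNK3, 2.05 for KCNJ12, 2.10 for KCNMA1, 2.19 for KCNAB1, 2.43 for KCNG1 and 3.24 for SCN4B.

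Within the groups of 4 tumors, 1 tumor lay far from the other three in 7 of 58 groups of values examined (29 channel genes), by Dixon's test at the 95% level, where chance gives about 1 in 20. Control tumor 2 was high for CACNA1H (12.3 CPM, others 3.82 to 4.98) and KCNK10 (2.08 CPM, others 0.741 to 0.869) and low for CACNG4 (93.7 CPM, others 101 to 102). Control tumor 1 was high for KCNJ12 (26.7 CPM, others 21.1 to 22.0) and low for KCNMA1 (73.6 CPM, others 80.2 to 81.1). Among sgTWIST1 tumors, tumor 4 was low for KCNA3 (1.74 CPM, others 3.41 to 3.49) and tumor 2 was high for KCNG3 (6.24 CPM, others 2.55 to 3.05).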

How the results depend on the processing

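Of 83 called channel gene values over the 5 comparisons, 64 kept their call and none changed sign in any setting run, and in the genotype comparisons the calls of KCNH2 and KCNIP4 in cells and of KCNQ5 and SCN3B in tumors were lost in at least 1 setting. The number of DE channel genes rose to 37 in cells and to 26 in tumors with the filterByExpr filter and also with no filter on low counts, since 115 to 132 genes were then tested. With the replicate block it was 21 in cells (9 higher in Control, 12 lower) and 16 in tumors, with DESeq2 20 and 17, and leaving out 1 library gave 15 to 23 in cells, 15 to 18 in tumors, 13 to 16 for the interaction, 16 to 19 for Control tumors against cells and 13 to 16 for sgTWIST1. The highest, 23 in cells, was without Control clone 2. Tumors without same-numbered pairing (r from -0.191 to 0.283) share only a number, and the block changed no call there other than that of SCN3B. Leaving out Control tumor 2 and sgTWIST1 tumors 2 and 3, chosen after the data were seen, gave 17 in tumors, 14 for the interaction, 20 for Control tumors against cells and 14 for sgTWIST1. With the filterByExpr filter 15.4% of all genes were DE in cells and 11.7% in tumors. For the other settings the share over all genes is not given here, so their counts are for accounting only. Signs turned only for values that were not called. KCNJ5 in cells was 0.41 ± 0.54 in the main fit and -0.10 with batch 1 alone. In tumors CACNB1 was 0.0129 with no filter and 0.066, KCNJ8 -0.0611 and SCN8A 0.0123 without the 3 tumors named above. With 1 library left out, CACNB1 ranged from -0.12 to 0.46 in cells and from -0.33 to 0.24 in tumors, CACNG4 in tumors from -0.0152 to 0.23, KCNJ8 from -0.0749 to 0.30, KCNH6 from -0.31 to 0.16 and KCNH8 from -0.0079 to 0.29. The causes were not tested. Below a few CPM the difference between tumor libraries limits what can be told.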
